A study of Mus musculus and Homo sapiens with 24 samples.

Results

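K-562 cells derive from chronic myeloid leukaemia and show erythroid and megakaryocytic features. The 6 libraries described here, of 24 in the series, came from K-562 cells with a *TET2* knockout (KO). They formed 2 groups of 3, one carrying a short hairpin RNA against *MBD6* (shMBD6) and one carrying a control hairpin (shControl). Members were taken by their sample titles, and all genes were kept. Both groups therefore shared the *TET2* KO. Hairpins were delivered by lentivirus under drug selection per the study's methods, which describe 1 hairpin against *MBD6*. The 6 libraries with the same hairpins in wild-type (WT) K-562 served as the comparison. The labels name these hairpins, but the study's own sample sheet lists the same libraries as siRNA samples, so the means of knockdown was not resolved here. The labels give no culture for a replicate, so p-values here measure the spread between these libraries, which may be technical.

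TET2 is a dioxygenase that oxidises 5-methylcytosine in DNA and in RNA, and its loss is frequent in myeloid malignancies. MBD6 carries a methyl-CpG-binding domain and joins the polycomb repressive deubiquitinase (PR-DUB) complex, in which BAP1 with an ASXL partner removes the ubiquitin that polycomb repressive complex 1 places on histone H2A. The study treats MBD6 as a reader of methylated RNA, and the comparison asks what changed when *MBD6* was reduced in leukaemia cells that lack TET2.

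Each library held 30917798 to 37353366 counts in genes. Levels are TMM-normalised CPM, counts scaled to library size, and each log2 fold change is the fitted one, with its standard error (SE) after ±. All 14 K-562 defining markers were tested, with a summed level of 2076 to 2153 CPM with shControl and 2009 to 2043 CPM with shMBD6. Summed monocyte markers were 94.0 to 99.5 CPM with shControl and 106.9 to 115.5 CPM with shMBD6, with *IRF8* at 0. B lymphoid markers summed to 10.1 to 11.1 and 14.7 to 16.1 CPM with *MS4A1* at 0, and T and NK markers to 11.6 to 15.1 and 7.59 to 8.91 CPM with *BCL11B* at 0. Fibroblast markers summed to 4.20 to 5.30 and 6.19 to 7.64 CPM with *POSTN* at 0, and epithelial markers, which K-562 itself expresses, to 1003 to 1072 and 1269 to 1328 CPM. The share of reads assigned to no gene was 13.2% to 13.8% with shControl and 10.4% to 10.7% with shMBD6. ERCC spike-in RNA made up 0.361% to 0.384% and 0.319% to 0.322% of counts. The part of these differences in the results was not tested.

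*MBD6* mRNA fell by 0.84 ± 0.05 on the log2 scale (SE, adjusted p = 1.92e-10). The 3 shControl libraries held 73.4, 75.9 and 82.3 CPM and the 3 shMBD6 libraries 43.5, 43.9 and 42.4 CPM. The groups did not overlap, and 1.79-fold less *MBD6* mRNA remained with the hairpin. The gene lies at chr12:57520710-57530148 (hg38). *TET2* mRNA was present in both groups, at 33.3 ± 0.688 CPM with shControl and 31.8 ± 0.815 CPM with shMBD6 (SD, n = 3), a log2 difference of -0.07 ± 0.07 (adjusted p = 0.445). Its counts cover the whole gene and therefore do not check the KO alleles.

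Of 17936 genes tested, 6243 passed an adjusted p of 0.05, which is 34.8%. Of these, 3326 rose (18.5% of genes tested) and 2917 fell (16.3%). Among the 13104 protein-coding genes tested, 22.8% rose and 18.5% fell. Counts of list members below are to be read beside these shares. Most changes were small. The median size of a called change was 0.35 on the log2 scale, and 71.0% of called genes changed less than 1.5-fold. A change of at least 2-fold was called for 1031 genes (5.75%), of which 733 rose and 298 fell. Only 253 of them reached a mean of 5 CPM in either group. The 3 shMBD6 values lay clear of the 3 shControl values for 44.9% of genes tested, 23.1% with all shMBD6 values higher and 21.8% with all lower.

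All of these fold changes are relative to the bulk of genes. Scaling the libraries to their spike-in RNA moved the median of all genes from 0.00 to 0.18 on the log2 scale, and the called genes then split into 6869 that rose and 1055 that fell. A fall smaller than about that shift can turn into a rise under this scaling.

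**Figure D1:**
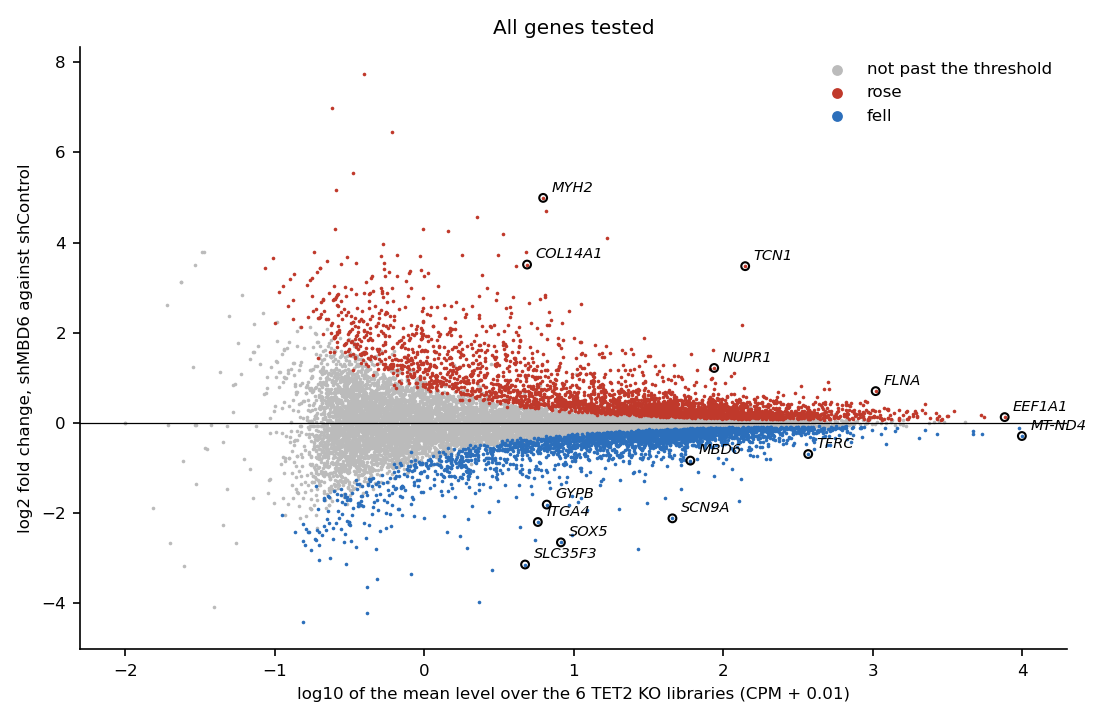
Every gene tested, with log10 of its mean CPM over the 6 *TET2* KO libraries (plus 0.01) on the x axis and its log2 fold change, shMBD6 against shControl, on the y axis. Red genes rose, blue genes fell, and named genes are circled, with *MYH2* at 4.99, *TCN1* at 3.48 and *SLC35F3* at -3.14.

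Among the 10 subunits and partners of PR-DUB that were tested, none rose and 4 fell, against 16.3% of all genes that fell, with a median log2 fold change of -0.04. *MBD6*, the target of the hairpin, is 1 of these 4, and 3 of the other 9 fell. *OGT*, the enzyme that attaches N-acetylglucosamine to nuclear proteins, held 801, 822 and 794 CPM with shControl and 651, 670.1 and 673 CPM with shMBD6. It fell by 0.28 ± 0.03 on the log2 scale (adjusted p = 6.62e-08). *ASXL1*, the scaffold that activates BAP1, moved from 133 ± 1.01 to 117 ± 3.26 CPM (SD, n = 3) and fell by 0.20 ± 0.03. *KDM1B*, a histone demethylase, fell by 0.17 ± 0.04, but its log2 fold change was 0.01 with spike-in scaling, under which *MBD6* and *OGT* still fell, 6 members rose and *ASXL1* stood at -0.01. *BAP1*, the catalytic subunit, stood at 82.2 ± 2.90 and 80.5 ± 3.96 CPM, with overlapping groups (log2 fold change -0.03 ± 0.04, adjusted p = 0.627). The paralogue *MBD5* (0.07), *ASXL2* (-0.03), *FOXK1* (0.05), *FOXK2* (-0.04) and *HCFC1* (0.02) did not pass the threshold either, and *ASXL3* was below the count filter.

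**Figure D2:**
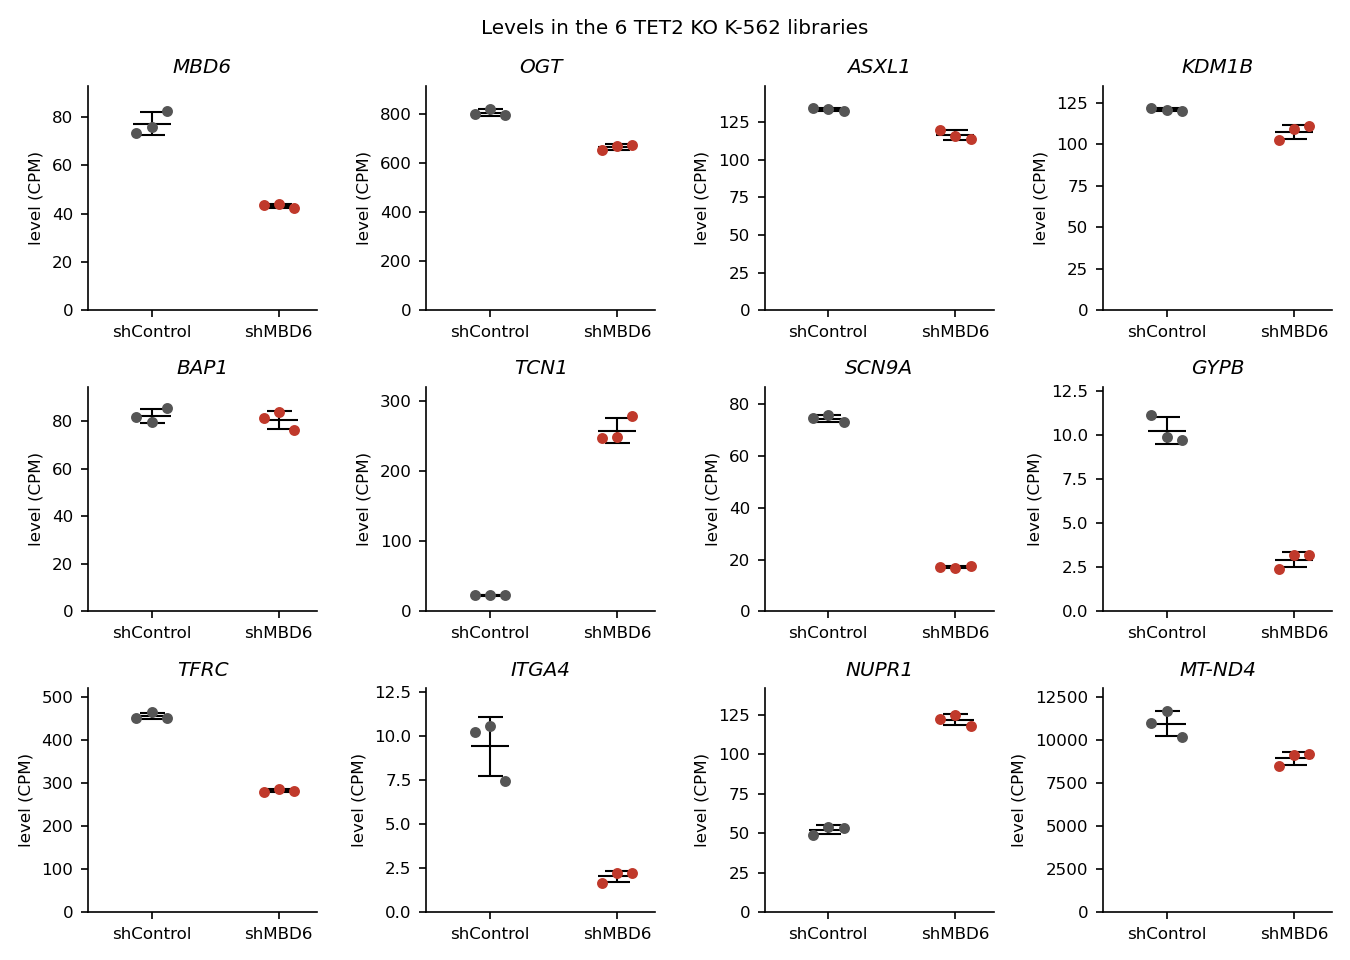
Levels in CPM (y axes start at 0) of 12 genes in the 3 shControl (grey) and 3 shMBD6 (red) libraries from *TET2* KO K-562, with the mean and SD as black bars. The groups stand apart for every gene drawn except *BAP1*, whose means were 82.2 and 80.5 CPM.

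Polycomb genes moved little. In polycomb repressive complex 1, 5 of 28 members rose (17.9%) and 2 fell (7.14%), with a median of 0.05. Of all genes tested 18.5% rose and 16.3% fell. *SCML2* (0.49) and *BCORL1* (0.42), both on the X chromosome, rose most, while *SCMH1* (-0.29) and *MGA* (-0.15) fell, *MGA* with a value of 0.03 under spike-in scaling. In complex 2, which methylates histone H3, 2 of 12 rose and 2 fell (16.7% each way, near the shares of all genes, median 0.04). The accessory subunit *PHF19* went from 222, 224 and 249 CPM to 173, 165 and 162 CPM, a fall by 0.48 ± 0.04, and the methyltransferase *EZH2* fell by 0.14, with 0.04 under spike-in scaling. *MTF2*, an accessory subunit of the same family as PHF19, rose by 0.24 ± 0.05.

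The writers, erasers and readers of 5-methylcytosine moved in both directions, with 6 of 26 members higher and 7 lower (median 0.02). The DNA methyltransferase *DNMT3A* fell from 34.0, 35.5 and 31.5 CPM to 23.2, 22.4 and 22.0 CPM, or by 0.58 ± 0.06 on the log2 scale. *TET1* fell by 0.34 and *TET3* by 0.25, and *MBD3*, of the methyl-CpG-binding domain family, by 0.40. *CXXC5* fell by 0.41 ± 0.04. *ALYREF*, which binds methylated mRNA for export, fell by 0.38, and *YBX1*, a further reader of methylated RNA, by 0.16 (0.03 with spike-in scaling). *DNMT3B*, a de novo DNA methyltransferase, rose by 0.29. The RNA methyltransferase *NSUN2* had a log2 fold change of -0.08 and did not pass the threshold, and *NSUN7* rose at a level of under 1 CPM.

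Relative to the bulk of genes, more genes of the erythroid membrane fell than rose. Of 27 genes of the erythroid membrane, 15 fell and 6 rose, against 16.3% and 18.5% of all genes tested, and the median was -0.25 (-0.07 with spike-in scaling, 13 falling and 11 rising). *GYPB*, a sialoglycoprotein of the red cell surface, held 11.1, 9.90 and 9.71 CPM with shControl and 2.42, 3.17 and 3.18 CPM with shMBD6. It fell by 1.81 ± 0.12 (adjusted p = 3.91e-10), and *GYPE* fell by 1.06. These genes have near-identical copies on chromosome 4, so how reads were split is uncertain. Other members that fell were the beta spectrin *SPTB* (-1.02), *ADD2* (-0.80), *ANK1* (-0.45), *RHAG* (-0.32) and *KEL* (-0.42). Among the members that rose were *EPB41*, which encodes the protein that ties spectrin to actin (0.28 ± 0.02), *RHCE* (0.52) and *EPB42* (1.20, at 1.00 CPM with shControl). Without the first shControl library 3 members rose and 15 fell.

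Of 25 genes of haem synthesis and erythroid iron, 11 fell and 6 rose, with a median of -0.12 that became 0.06 under spike-in scaling, where 5 fell and 11 rose. *TFRC*, the transferrin receptor that brings iron into the cell, held 453, 465 and 453 CPM with shControl. In the shMBD6 libraries it held 279.9, 287 and 283 CPM. The fall was 0.69 ± 0.03 on the log2 scale (adjusted p = 2.97e-13). Enzymes along the pathway fell as well, among them *UROD* (-0.43), *PPOX* (-0.40) and *UROS* (-0.28). *ALAS2*, the erythroid enzyme of the first step, went the other way, from 55.8 ± 1.72 to 111 ± 8.08 CPM, a rise of 0.99 ± 0.05. *CPOX* also rose (0.46).

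Globin mRNAs were not lower as a group. Of 8 tested, *HBZ* and *HBG2* rose, by 0.42 ± 0.07 and 0.27 ± 0.04, and *HBD* fell at a level of about 1 CPM. *HBG1* (0.35), *HBA1* (0.14) and *HBA2* (0.13) did not pass the threshold, and these near-identical pairs share reads. Among 22 erythroid transcription factors and signalling genes, 9 fell and 6 rose, with a median of -0.02 (0.17 with spike-in scaling, 4 falling and 13 rising). Without the first or the second shControl library 3 rose. *SOX6*, a repressor of fetal globin genes, went from 16.9 ± 1.75 to 5.37 ± 0.335 CPM (SD, n = 3), a fall by 1.66 ± 0.11. *JAK2* fell by 0.56, *EPOR* by 0.40 and *KLF1* by 0.30, while *GATA2*, a factor of earlier progenitors, rose by 0.40 ± 0.04. *GATA1* had a log2 fold change of 0.02 (adjusted p = 0.670). In bulk RNA, fewer cells that express a gene and less RNA per cell cannot be told apart.

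Of 16 megakaryocyte and platelet genes tested, 8 rose (50%) and 2 fell (12.5%), against 18.5% and 16.3% of all genes. The median was 0.44, and 5 rose when the second shMBD6 library was left out. The thrombin receptor *F2R* held 13.7, 16.0 and 14.5 CPM with shControl and 26.2, 27.0 and 27.4 CPM with shMBD6 (0.87 ± 0.07). *CAVIN2* rose by 0.58 and *PLEK* by 0.86, and *THBS1* by 1.97 from 0.509 CPM. *TUBB1*, the platelet tubulin, fell by 1.16 ± 0.08 and *ETS1* by 0.48. In the granulocyte and monocyte list 6 of 19 rose and 1 fell (median 0.13). *TCN1*, a cobalamin-binding protein of neutrophil granules, rose from 24.1, 22.7 and 22.7 CPM to 246, 248 and 278 CPM, an 11.1-fold difference (adjusted p = 4.15e-20). *CEBPE*, the factor of late granulocyte maturation, rose at low level, from 0.162 ± 0.115 to 1.71 ± 0.623 CPM. Its fitted change was 3.39, and 4.04 without the third shControl library. *CEBPD* fell by 0.78 ± 0.09. The primary granule genes *MPO*, *ELANE* and *PRTN3* were below the count filter. In the stem cell and self-renewal list 7 of 16 rose and 3 fell (median 0.23), with *HMGA2* (3.15, from 0.150 CPM) and *PBX3* (0.97) highest and *MECOM* (-0.43) and *IGF2BP2* (-0.30) lowest. Without the third shMBD6 library *PBX3* did not pass the threshold (edgeR, adjusted p = 0.0574).

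**Figure D3:**
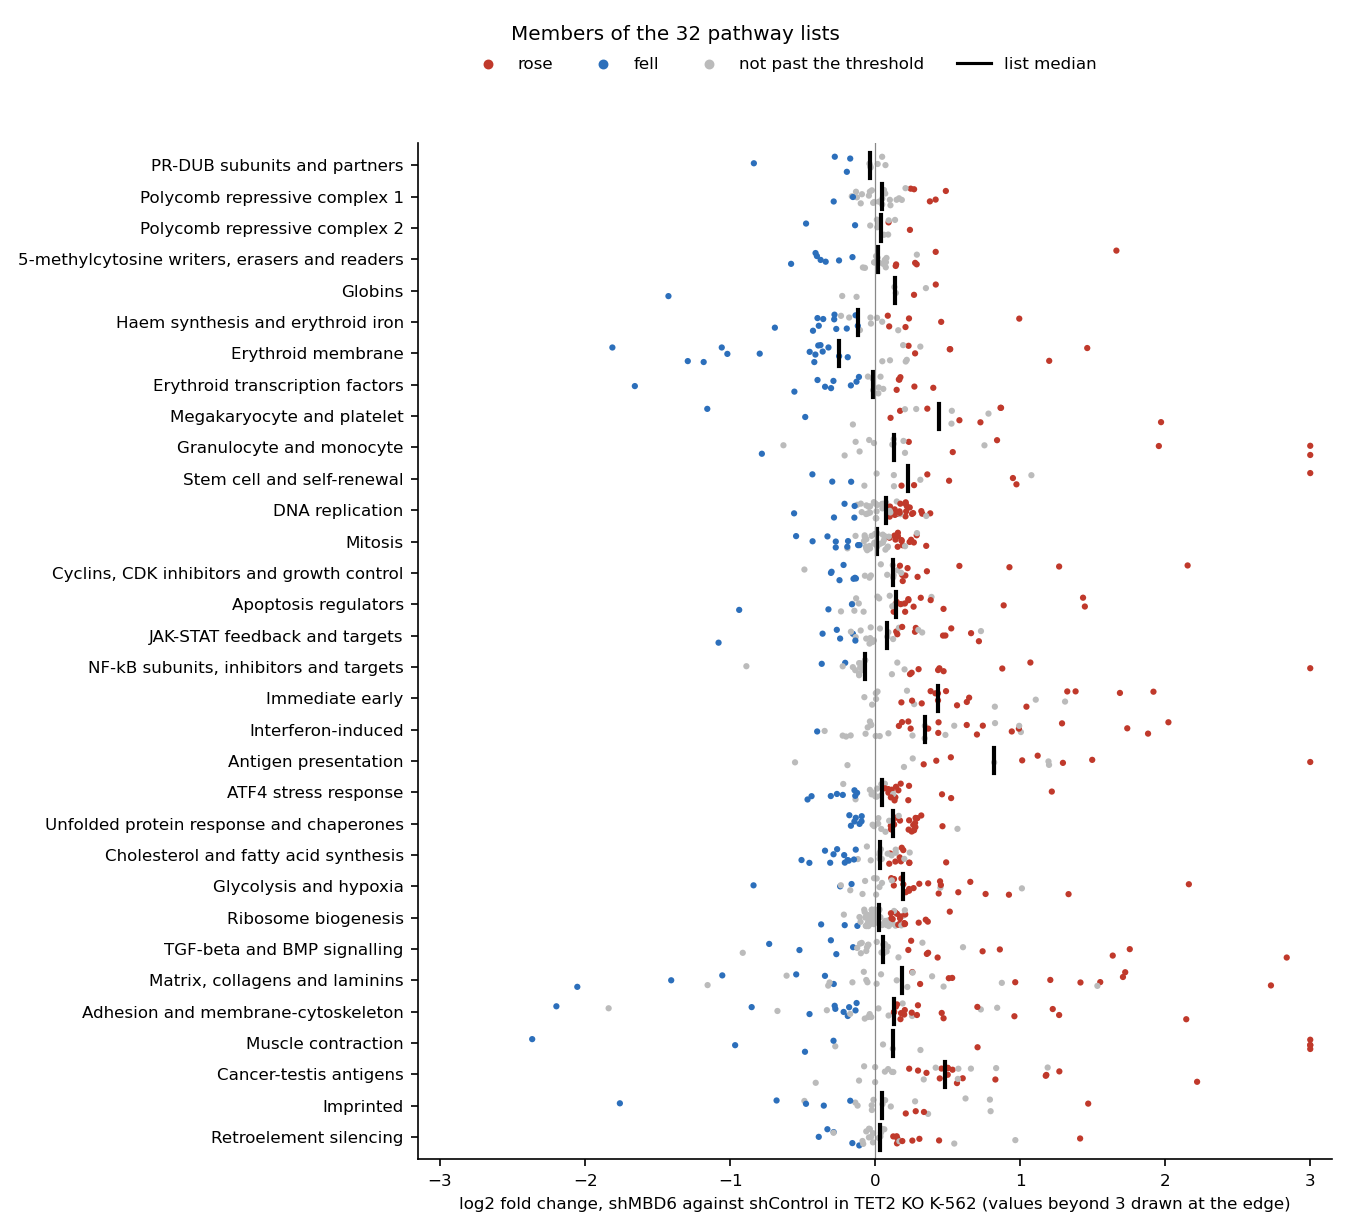
Log2 fold changes (x axis) of the tested members of 32 pathway lists in *TET2* KO K-562, one row a list, with values beyond 3 drawn at the edge. Red members rose, blue members fell and the black bar is the list median, which runs from -0.25 for the erythroid membrane to 0.82 for antigen presentation, the latter at 0.51 without the first shMBD6 library.

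Immediate early genes, the transcription factors and feedback proteins that growth signals induce within minutes, rose in 16 of 26 cases. This was 61.5%, against 18.5% of all genes tested, and none fell (median 0.43). *FOS* held 0.795, 0.449 and 0.669 CPM with shControl and 2.07, 2.37 and 1.73 CPM with shMBD6 (1.69 ± 0.26). *JUN* rose by 0.56, *FOSB* by 1.32, *NR4A1* by 1.04 and *IER5* by 0.63, and *IER2* by 0.18 ± 0.04. *ARC* rose at under 1 CPM. *EGR1*, named here after its value was seen, rose from 16.7 to 43.6 CPM on average (1.38, adjusted p = 1.35e-12). *SRF* (-0.02) and *JUND* (0.01) did not pass the threshold.

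Serum response factor binds the CArG box, a short motif of many immediate early promoters. The 300 bases before the annotated start were read from hg38 for all 26 list members tested, and 3 of them held a CArG box (11.5%), against 175 of 13091 protein-coding genes tested (1.34%). The motif reads the same on both strands. The 3 were *EGR1*, *FOSB* and *SRF*, so 14 of the 16 members that rose held none in this window. The 2 that rose are shown because they carry the motif, in capitals, from 5′ to 3′ on the plus strand, *EGR1* at chr5:138465179-138465478 and *FOSB* at chr19:45467695-45467994.
EGR1: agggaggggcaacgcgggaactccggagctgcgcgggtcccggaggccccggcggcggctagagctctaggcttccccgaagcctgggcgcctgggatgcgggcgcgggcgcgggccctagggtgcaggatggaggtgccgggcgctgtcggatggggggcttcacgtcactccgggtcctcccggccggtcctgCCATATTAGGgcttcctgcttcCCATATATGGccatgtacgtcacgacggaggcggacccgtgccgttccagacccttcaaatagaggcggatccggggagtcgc
FOSB: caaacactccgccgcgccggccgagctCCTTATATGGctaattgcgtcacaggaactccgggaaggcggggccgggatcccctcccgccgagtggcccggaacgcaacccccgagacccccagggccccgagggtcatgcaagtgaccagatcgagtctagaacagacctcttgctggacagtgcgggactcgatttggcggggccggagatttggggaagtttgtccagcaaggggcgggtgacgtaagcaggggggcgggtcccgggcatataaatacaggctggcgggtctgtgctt
The boxes began 105 and 83 bases before the start of *EGR1* and 273 bases before that of *FOSB*. A match describes the sequence and says nothing about binding in these cells.

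Interferon-induced genes rose in 16 of 37 cases (43.2%, against 18.5% of all genes) and fell in 1, with a median of 0.34. *LGALS3BP*, a secreted glycoprotein, held 4.00, 3.98 and 4.97 CPM with shControl and 16.7, 15.6 and 15.3 CPM with shMBD6 (1.88 ± 0.11, adjusted p = 3.92e-11). *IFITM1* and *IFITM3*, membrane proteins that block viral entry, rose by 0.63 and 0.74, and share close sequence. *MX2* rose by 1.29 and *OAS3* by 0.70, while *MX1* and *IFIH1* rose from under 1 CPM and *PARP9* fell by 0.40. *IFIT3* (-0.20), *IRF7* (-0.22) and *RSAD2* (-0.17) did not pass. Antigen presentation genes rose in 8 of 15 cases (53.3%, against 18.5% of all genes) and fell in none (median 0.82). Most were at low level, and only 5 rose without the second shControl library. The median was 0.51 without the first shMBD6 library, where 1 fell, and 0.46 when the 6 KO libraries were fitted alone. *B2M*, the light chain of class I molecules, held 63.2, 59.5 and 58.1 CPM against 78.8, 77.0 and 72.3 CPM (0.33 ± 0.05), and *HLA-E* rose by 0.52. *CD74*, the invariant chain of class II molecules, rose from 1.09, 0.981 and 1.24 CPM to 3.10, 2.96 and 3.29 CPM. *HLA-B* was close to the limit of detection, at 0.0589 CPM in 1 shControl library, 0 in the others, and 0.0538, 0.339 and 0.251 CPM with shMBD6. Its fitted log2 fold change of 3.19 became 5.85 without the first shControl library. *CD74* and *SPI1* are also in the monocyte marker list, whose summed level is given above.

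Among NF-kB subunits, inhibitors and targets 9 of 26 rose and 2 fell, although the median was -0.07 (0.11 with spike-in scaling). *RELB* rose by 1.07 ± 0.27 and *TNIP1* by 0.30 ± 0.04, *CCL2* rose from 0.0883, 0.168 and 0.318 CPM to 1.70, 2.19 and 1.87 CPM, and *NFKB1* fell by 0.37 ± 0.06. In JAK-STAT feedback and targets 10 of 33 rose and 6 fell (median 0.08). The inhibitors of growth factor signalling *SPRY4* (0.66 ± 0.06) and *DUSP5* (0.72 ± 0.14) rose, and *IL2RG* fell by 1.08 ± 0.16. *PIM1*, a STAT5 target kinase, had a log2 fold change of -0.02 (adjusted p = 0.655).

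Cell cycle genes moved little in size. Of 54 DNA replication genes 21 rose and 5 fell, with a median of 0.08. The nucleotide enzymes *RRM2* (0.38 ± 0.05) and *TK1* (0.32 ± 0.04) rose most, and *RPA3* (-0.56 ± 0.07) and *POLD2* (-0.28 ± 0.04) fell most. Of 52 mitosis genes 14 rose and 9 fell (median 0.02), with *ANLN* (0.35) and *CDK1* (0.29) at one end and *ESPL1* (-0.54) and *CENPE* (-0.43) at the other. *TOP2A*, at 0.05, did not pass. Among 29 cyclins, CDK inhibitors and growth control genes 11 rose and 7 fell (median 0.12). *CDK4* went from 228 ± 9.77 to 184 ± 4.90 CPM (-0.30 ± 0.03) and *MXI1* fell by 0.30. *GADD45B*, a stress-induced growth inhibitor, rose by 1.27 ± 0.25, and *CDKN1A*, which encodes the CDK inhibitor p21, rose by 0.93. Among apoptosis regulators 14 of 30 rose (46.7%) and 3 fell (10%), against 18.5% and 16.3% of all genes. The list median was 0.14. *BCL2*, the survival protein, fell from 5.83, 4.57 and 5.73 CPM to 3.10, 2.34 and 2.96 CPM (-0.94 ± 0.17, adjusted p = 1.99e-04), and its antagonist *BCL2L11* fell by 0.32. *BIRC3* rose by 1.45 from under 1 CPM, and *CYCS* by 0.15. Replication-dependent histones, whose mRNAs largely lack a poly(A) tail, rose in 20 of 51 cases and fell in 2 (median 0.48). These shares were 39.2% and 3.92%, against 18.5% and 16.3% of all genes. The histone genes have near-identical copies.

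Cytosolic ribosomal proteins rose together in KO cells. Of 82 tested, 66 rose (80.5%, against 18.5% of all genes) and 3 fell, and the median was 0.21, close in size to the shift that spike-in scaling adds. With the same hairpin in WT cells 60 of them fell and 4 rose (median -0.17). Relative to the bulk of genes, the change was higher in KO cells for 71 by the genotype by hairpin interaction. *RPLP2* held 1987, 1747 and 2047 CPM with shControl and 2611, 2549 and 2525 CPM with shMBD6 (0.41 ± 0.07), and *RPL13A* rose by 0.17 ± 0.03. The elongation factor *EEF1A1* gained the most CPM of any gene, from 7292 ± 66.5 to 7971 ± 156 (0.13 ± 0.02). These genes have many processed pseudogenes, so their counts rest on reads that map to 1 place. Ribosome biogenesis genes, by contrast, had a median of 0.03, with 18 of 71 higher and 3 lower. *UTP14A* (0.51) and *DKC1* (0.36), both encoded in distal Xq, rose most, and *UTP20* (-0.37) and *POLR1A* (-0.21) fell most. The mitochondrial genome moved the other way, with 7 of its 13 protein genes lower and 1 higher (median -0.11, and 0.07 with spike-in scaling, under which 2 fell). *MT-ND4* lost the most CPM of any gene, from 10980.3, 11663 and 10196 to 8519, 9136 and 9183, a fall by 0.29 ± 0.04. *MT-CO2* (-0.26), *MT-ATP6* (-0.24) and *MT-CYB* (-0.25) fell alike, as did *MT-CO3* (-0.17, and 0.01 with spike-in scaling). Nuclear subunits of oxidative phosphorylation had a median of 0.06, with 21 of 92 higher and 9 lower.

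Glycolytic and hypoxia-responsive genes rose in 20 of 35 cases (57.1%, against 18.5% of all genes) and fell in 3 (8.57%, against 16.3%). The median was 0.19. The pyruvate kinase gene *PKM* rose by 0.76, *ALDOC* by 0.92, *ENO2* by 0.66 and *PFKM* by 0.45, and *ENO1* moved from 1527 to 1797 CPM (0.23 ± 0.02). *EGLN3*, a hydroxylase that hypoxia induces, held 2.89, 2.52 and 3.06 CPM against 6.54, 7.85 and 6.94 CPM (1.33 ± 0.13). *NDRG1* rose by 2.16 ± 0.25, with 7.56, 8.59 and 17.5 CPM in the shMBD6 libraries, of which the third stood above the others. *PDK1* (-0.24) and *SLC16A3* (-0.84) were among those that fell. The call of *PDK1* was lost without the second shControl library (edgeR, adjusted p = 0.170) or either of the first 2 shMBD6 libraries, and that of *SLC16A3* without the third shControl or the second shMBD6 library (adjusted p = 0.0594 and 0.0622). *VEGFA* (0.03) and *GAPDH* (-0.01) did not pass. In the ATF4 stress response 15 of 36 rose and 8 fell (median 0.05), and the changes were uneven. *NUPR1*, a stress-induced chromatin protein, rose from 49.1, 54.2 and 53.5 CPM to 122, 125 and 118 CPM (1.22 ± 0.05, adjusted p = 8.93e-14), and *GDF15* by 0.52 ± 0.04. *EIF4EBP1* fell by 0.47 and *SLC7A1* by 0.44. Unfolded protein response and chaperone genes rose in 17 of 33 cases and fell in 7 (median 0.13). The cytosolic chaperones led, with *HSPA8* at 764, 782 and 762 CPM against 1037, 1052 and 1095 CPM (0.46 ± 0.03), *DNAJA1* at 0.32 and *HSP90AB1* at 0.27, while *HSF1* fell by 0.18 (0.00 with spike-in scaling). Cholesterol and fatty acid synthesis had 10 of 36 higher and 12 lower (median 0.04), with *NSDHL* (0.49, in distal Xq) and *MSMO1* (0.24) at the top and *FADS2* (-0.51) and *PMVK* (-0.45) at the bottom.

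Among genes at 5 CPM or more in a KO group whose groups did not overlap, the genes with the largest changes were of many kinds. *MYH2*, a myosin heavy chain of fast skeletal muscle, rose from 0.353, 0.308 and 0.478 CPM to 11.8, 11.5 and 13.0 CPM, a 31.8-fold difference (log2 fold change 4.99 ± 0.21). It lies at chr17:10521148-10549700 in a row of skeletal myosin genes on 17p. Its neighbours *MYH1* and *MYH8* (3.04) rose with it, and *MYH4*, at 0 in all 3 shControl libraries, reached 0.458, 0.616 and 1.25 CPM. Taking 3 counts over the 3 shControl libraries as the floor, *MYH4* was at least 26.2-fold higher. *MYH3*, at the end of the row, had a log2 fold change of -0.27 and did not pass. These myosins are close in sequence, which leaves the split of reads between them uncertain. Of the rest of the muscle list, *DES* fell from 55.5 ± 3.62 to 28.4 ± 1.74 CPM and *MYL4* by 0.48, *TNNI3* rose by 0.71, and *TNNT1* (0.05) did not pass. In all 5 of 13 rose and 4 fell. The myogenic regulators *MYOD1* and *MYOG* were below the count filter.

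*DYDC2* rose by 3.79 ± 0.21, *COL14A1*, a fibril-associated collagen, by 3.51 ± 0.22, *PAEP*, which encodes the secreted glycoprotein glycodelin, by 3.49 ± 0.21, and *SPARCL1*, a matrix glycoprotein, by 2.87 ± 0.34. All of them were at 1 CPM or lower on average with shControl and at 5.40 to 8.95 CPM with shMBD6. *ACVRL1*, a type I receptor for BMP9 on endothelial cells, went from 1.57 ± 0.0644 to 11.3 ± 0.387 CPM (SD, n = 3), a log2 fold change of 2.84. *ENG*, its co-receptor, rose by 1.76 ± 0.24. *ANKRD33* (2.79 ± 0.15) ends at position 51891727 of chromosome 12, close to the start of *ACVRL1* at 51906908. The cancer-testis gene *PAGE4* rose by 2.75 ± 0.12 and *COL1A1*, type I collagen, by 2.73 ± 0.19 to 5.22 CPM, while *COL1A2* and *COL3A1* fell, both to under 1 CPM. Without the first shControl library the call of *COL3A1* was lost (edgeR, adjusted p = 0.0945). The matrix list as a whole had 11 of 34 higher and 6 lower (median 0.19, but 0.08 without the first shMBD6 library, where 8 fell, and 0.11 without the second shControl library), with *COL6A1* at 1.72 and the basement membrane proteoglycan *HSPG2* at -0.35 ± 0.04. TGF-beta and BMP signalling had 10 of 34 higher and 5 lower (median 0.06), with *LTBP1* falling by 0.73 ± 0.05 and *TGFB1* rising by 0.25 ± 0.05.

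Among protein-coding genes at 5 CPM or more in a KO group whose groups did not overlap, the deepest falls were those of *SLC35F3* (-3.14 ± 0.27), *SOX5* (-2.65 ± 0.12), *CCDC148* (-2.59 ± 0.17), *DSC3* (-2.48 ± 0.17) and *SEC14L6* (-2.31 ± 0.22). *SOX5*, a factor of the same family as SOX6, went from 13.9, 15.3 and 13.1 CPM to 2.26, 2.68 and 1.84 CPM. *ITGA4*, the integrin subunit that with ITGB1 binds VCAM1 and fibronectin, went from 10.2, 10.6 and 7.48 CPM to 1.70, 2.25 and 2.23 CPM (-2.20 ± 0.18, adjusted p = 1.05e-08). The voltage-gated sodium channel *SCN9A* held 74.4, 75.6 and 72.8 CPM with shControl and 17.2, 16.6 and 17.6 CPM with shMBD6, a fall by 2.12 ± 0.05. *CD96*, an immunoglobulin-family receptor, fell from 19.5 ± 0.336 to 5.14 ± 0.241 CPM. *PTPRR* (-1.91 ± 0.10), a phosphatase of MAP kinases, and *DYSF* (-1.83 ± 0.12), a membrane repair protein, complete the 10. Adhesion and membrane-cytoskeleton genes in general rose more often, in 18 of 42 cases with 10 lower (median 0.13). *ITGB2* (2.15 ± 0.31) and *MYL9* (1.27 ± 0.17) rose, *VIM* went from 1342 to 1647 CPM, and *PECAM1* fell by 0.85 ± 0.07.

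Outside the protein-coding genes, 212 of 2973 lncRNA genes rose (7.13%, against 18.5% of all genes) and 340 fell (11.4%, against 16.3%), with a median of -0.12 (0.06 with spike-in scaling, 381 higher and 184 lower). Of these, 126 rises and 99 falls were at least 2-fold. The lncRNA genes were low, summing to 18108 to 18564 CPM with shControl against 954430 to 961022 CPM for protein-coding genes. Changes are harder to call at low levels, and the part of this in the low shares was not tested. The share of reads outside any gene was lower with shMBD6 as well, as given above. *LINC01121* rose from 0.342 to 6.33 CPM (4.18 ± 0.31, and 5.00 without the first shControl library) and an unnamed gene (ENSG00000244791) by 2.80 ± 0.24, and a further one (ENSG00000234261) fell by 1.57 ± 0.16. A single library set the size of 3 other changes. The pseudogene *CYP4F32P* held 15.1 CPM in the third shMBD6 library and 1.53 and 0.770 CPM in the others, and without it the change was 1.40 with an adjusted p of 0.0680. *MTND1P23* held 13.4 CPM in the third shControl library against about 1 CPM in the others, and without it the change was -0.92 (adjusted p = 0.0764). *YBX1P1* held 109.6 CPM in the second shControl library and 18.5 and 12.4 CPM in the others, and without it the change was -1.20 (adjusted p = 0.0575). Zinc finger genes of chromosome 19 rose in 45 of 226 cases (19.9%, against 18.5% of all genes) and fell in 16 (7.08%, against 16.3%; median 0.09), and *HOX* genes rose in 4 of 16 (median 0.03). Retroelement silencing genes rose in 9 of 32 cases and fell in 5 (median 0.03), with *MORC1* at 1.41 and *ATF7IP2* at 0.44 against *ATRX* at -0.39 and *SETDB2* at -0.33, and *TRIM28*, the shared corepressor, at 0.15. Imprinted genes had 4 of 23 higher and 5 lower (median 0.05), among them *H19* (1.47) and *MEG3* (-1.76), both at or near 1 CPM.

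The X chromosome stood apart from the autosomes. Its 648 tested genes had a median of 0.22, with 39.4% higher and 9.72% lower, while the medians of the 22 autosomes lay between -0.05 and 0.04. Most of the rise lay in distal Xq, taken here, after seeing the values, as the genes from *LRCH2* to the end of the long arm. Of 206 tested genes there, 138 rose and 2 fell (median 0.45). Of the 442 on the rest of X, 117 rose and 61 fell (median 0.08). At 5 CPM or more in either group, 131 of 135 distal genes were higher with shMBD6, with quartiles of the log2 fold change at 0.29 and 0.55. Among genes at 5 CPM or more in a KO group, the nearest outside the boundary were *ALG13* and the pseudogene *EIF4BP7*. *ALG13* stood at -0.16 and did not pass the threshold, and *EIF4BP7* rose by 0.60. At the same level the first inside it was *LRCH2* (-0.47), followed by *KLHL13* (0.46), *WDR44* (0.43) and *DOCK11* (0.24), which rose. Genes at lower levels near the boundary are not described. *FLNA*, an actin crosslinker of Xq28, held 769.8, 787 and 829.5 CPM against 1315, 1279.6 and 1295 CPM (0.70 ± 0.03) and was the fifth largest gain in CPM.

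**Figure D4:**
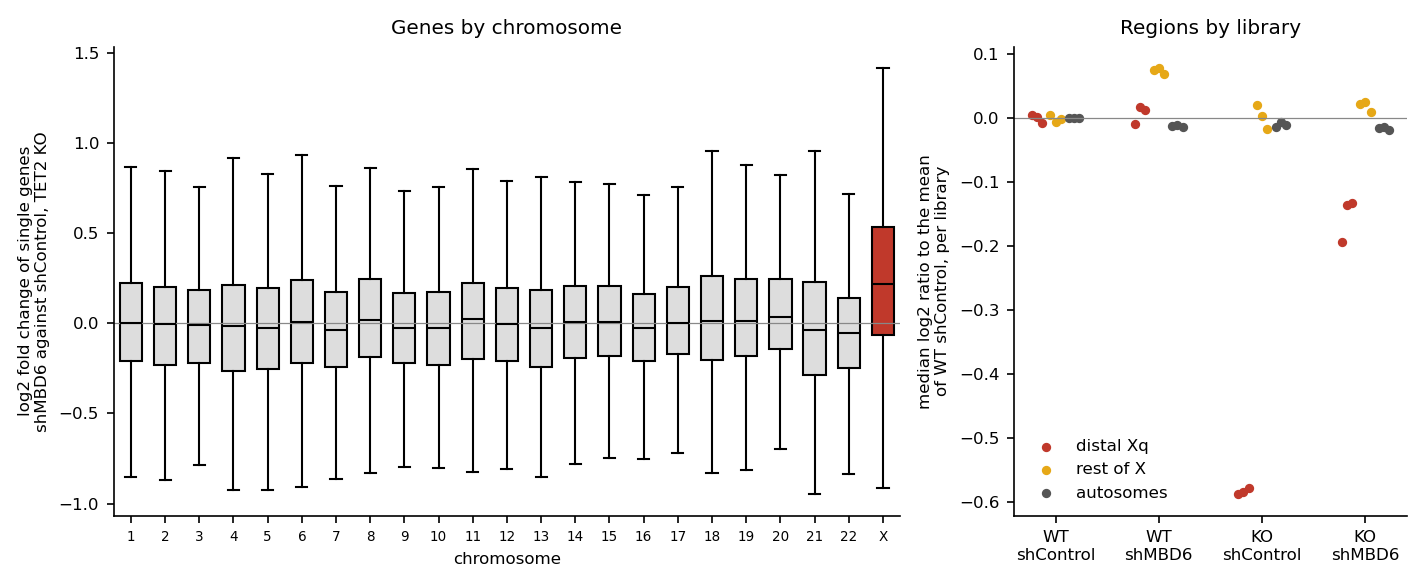
Left, log2 fold changes of single genes, shMBD6 against shControl in *TET2* KO K-562, by chromosome, as boxes of the quartiles with whiskers to 1.5 interquartile ranges and no outliers drawn. Right, for each library, the median log2 ratio to the WT shControl mean of distal Xq (red), the rest of X (yellow) and the autosomes (grey), with the KO shControl libraries at -0.59 to -0.58 in distal Xq.

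Across the 4 K-562 groups, the KO shControl libraries were the lowest in distal Xq. Against WT shControl, the median log2 ratio of 159 distal Xq genes at 2 CPM or more was -0.60 for KO shControl, -0.16 for KO shMBD6 and 0.01 for WT shMBD6. Each of the 3 KO shControl libraries lay between -0.59 and -0.58, and each KO shMBD6 library between -0.19 and -0.13. On the rest of X the same ratios were 0.00, 0.03 and 0.08. These ratios share the WT shControl mean, and the comparison of hairpins in KO cells shares the KO shControl libraries with them. A difference between the KO cell populations in this region and an effect of the hairpin cannot be told apart, and 12 of the 32 cancer-testis genes tested lie there. That list rose in 16 cases and fell in none (median 0.48), but outside distal Xq it rose in 7 of 20 (median 0.27). Among its members were *MAGEA1* (0.50), *MAGEC1* (0.46) and *MAGEC2* (0.60) in distal Xq, and *CTCFL*, the germline paralogue of CTCF on chromosome 20, which rose by 0.83. *PRAME*, at 0.07, did not pass the threshold. With distal Xq set aside, 6103 calls remained in all, of which 3188 were rises and 2915 falls.

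In WT K-562 the same hairpin lowered *MBD6* by 1.12 ± 0.05 on the log2 scale, from 82.5 to 38.0 CPM, a larger fall than in KO cells (difference 0.28 ± 0.08, adjusted p = 0.0104). Past the threshold in WT cells were 7099 genes (39.6%), of which 3653 rose (20.4%) and 3446 fell (19.2%). The WT and KO comparisons share no library. Of the 6243 genes called in KO cells, 3175 were called in the same direction in WT cells (50.9% of the KO list and 44.7% of the WT list), and 542 in the opposite direction (8.68% and 7.63%). The genotype by hairpin interaction was called for 3820 genes (21.3%), with a higher change in KO cells for 1840 (10.3%) and a lower one for 1980, and for 2224 of the genes called in KO cells (35.6%). The interaction uses the same KO libraries, so a call in KO cells favours a call here. With spike-in scaling the interaction was called for 13321 genes, 56 with a higher and 13265 with a lower change in KO cells, so every direction of a difference between genotypes given here holds relative to the bulk of genes.

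Some large changes were shared. *PTPRR* fell by 1.91 in KO and by 1.89 in WT cells (difference -0.01 ± 0.15, adjusted p = 0.961), and *ALAS2* rose by 0.99 in both (difference 0.00 ± 0.07). *COL14A1*, *PAEP*, *LINC01121* and *COL1A1* rose in both, and their differences did not pass the threshold. *TCN1* rose in both but more in KO cells (difference 1.14 ± 0.09, adjusted p = 2.83e-08). Others differed. *GYPB* stood at 13.7 CPM in WT shControl and 9.91 CPM in WT shMBD6, a smaller fall than in KO cells (difference -1.34 ± 0.16, adjusted p = 4.91e-06). *SCN9A* fell by 0.32 in WT cells (difference -1.79 ± 0.07), and *NUPR1* fell by 0.23 there (difference 1.45 ± 0.07). *DNMT3A* rose by 0.17 in WT cells (difference -0.75 ± 0.09). *ITGA4* rose in WT cells from 0.299 to 1.75 CPM, against the fall from 9.42 to 2.06 CPM in KO cells, which gave the largest difference among genes at 5 CPM or more in a KO group (-4.73 ± 0.34, adjusted p = 4.42e-09).

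Several of the deepest falls in KO cells were in genes whose KO shControl level lay far above WT. Both comparisons use the same 3 KO shControl libraries. Picking genes by a deep fall from these libraries favours a high KO shControl level, so the 2 observations are not independent. Between the shControl groups of the 2 genotypes 7683 genes were called (42.8%). *CD96* stood at 0.539 CPM in WT shControl, 19.5 CPM in KO shControl and 5.14 CPM in KO shMBD6. The corresponding levels were 0.372, 8.46 and 0.968 CPM for *SLC35F3*, 0.0571, 9.39 and 1.56 CPM for *CCDC148*, and 2.29, 16.6 and 2.98 CPM for *DSC3*. *SOX5* was different, at 29.3 CPM in WT shControl, 14.1 CPM in KO shControl and 2.26 CPM in KO shMBD6. *MYH2* was at 0.0167 CPM in WT shControl and 0.0286 CPM in WT shMBD6, so its rise was seen in KO cells (difference 4.59 ± 1.42, adjusted p = 0.0304). Both WT levels are near the limit of detection, so the size of this difference is uncertain.

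**Figure D5:**
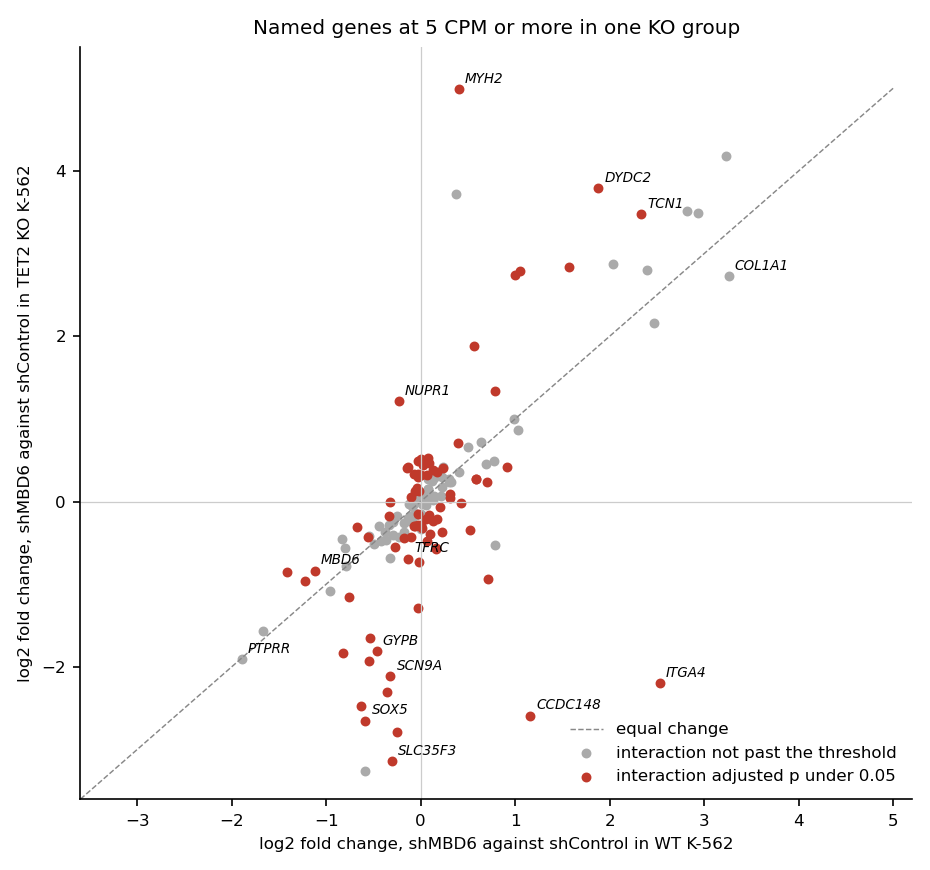
Log2 fold changes, shMBD6 against shControl, in WT (x axis) and *TET2* KO (y axis) K-562 for the 152 named genes at 5 CPM or more in a KO group, with the line of equal change dashed. The 80 red genes differed between genotypes at an adjusted interaction p of 0.05, with *ITGA4* furthest below the line at 2.53 and -2.20.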

How the data were processed

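RNA of K-562 cells was sequenced with ERCC spike-ins. The labels say poly(A) RNA. The study's methods name a total RNA kit that keeps the strand, for chromatin-associated RNA among others. The library type of these samples was therefore not resolved here. Per the labels and the study's methods, the authors trimmed reads with Trimmomatic 0.39, aligned them to hg38 and ERCC sequences with HISAT2 2.2.1, and deposited whole-number counts per GENCODE gene made with HTSeq 0.12.4. The strand setting of counting is not given in the sources used here, so overlapping and antisense genes are uncertain. HTSeq summary lines and ERCC rows were kept apart. Genes passing filterByExpr over the 12 K-562 libraries were fitted with edgeR 4.0.16 (R 4.3.3, TMM, quasi-likelihood test without a covariate), and p-values were adjusted by Benjamini-Hochberg over 17936 genes. Alternatives were DESeq2 1.42.0 (size factors and Wald test), spike-in scaling, no filter, 6 libraries only, a replicate block and leaving out each library. On simulated data for this comparison, 200 of 200 genes changed 2-fold were called, with 14 false calls among 17402 genes. Simulated counts came from the fitted model, and only genes at a mean of 5 CPM or more were changed. Smaller changes, and changes at lower levels, were not simulated, so this checks the code only. Counting error was small at these depths for abundant genes only. In a single KO shControl library 3 counts made 0.0840 to 0.0954 CPM, so values near this rest on few reads. Coordinates are hg38, with GENCODE annotation matched for 99.1% of identifiers. Named genes were *MBD6* and *TET2*, the 10 protein-coding genes with the largest rise and fall, 3 non-coding genes each way, 5 genes each way by CPM (all called, not overlapping and at 5 CPM or more) and, for each list, the 2 called members with the largest change each way and the most abundant member, and all PR-DUB genes. Further list members were named after their values were seen. Members and lists were chosen with earlier results of these data known. A few genes, some of them named by this rule, are not reported here. The 12 mouse libraries of the series were not used here.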

Additional observations from a re-analysis of the deposited data

Results flagged for a closer look

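Of 185 named genes, 90 changed differently with shMBD6 in *TET2* KO than in WT K-562 by the genotype by hairpin interaction in edgeR's quasi-likelihood fit (adjusted p under 0.05, 21.3% of all genes tested). Most named genes were picked by their change in KO cells, which is part of the interaction and uses the same KO libraries. This choice favours a higher share among them. Among all genes called in KO cells the share was 35.6%. The value beside each gene is its log2 fold change in KO cells minus that in WT cells, relative to the bulk of genes. A negative value can be a fall in KO cells or a larger rise in WT cells.

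The most negative values were those of *ITGA4* (-4.73), *COL1A2* (-4.39), *MEG3* (-3.78), *CCDC148* (-3.75), *SLC35F3* (-2.83), *YBX1P1* (-2.54), *SOX5* (-2.06), *SEC14L6* (-1.95), *DSC3* (-1.84), *H19* (-1.84), *SCN9A* (-1.79), *COL3A1* (-1.72), *BCL2* (-1.65), *CD96* (-1.38), *GYPB* (-1.34), *SOX6* (-1.12) and *DYSF* (-1.01). Of these, *MEG3*, *COL3A1* and *H19* were at about 1 CPM or less in KO cells, and *YBX1P1* rested on 1 shControl library. *CCDC148* was near the limit of detection in WT shControl, so the size of its difference is uncertain. Smaller negative values were those of *HSPG2* (-0.87), *DNMT3A* (-0.75), *JAK2* (-0.72), *LTBP1* (-0.71), *UTP20* (-0.60), *TFRC* (-0.56), *ETS1* (-0.55), *HBZ* (-0.50), *ATRX* (-0.49), *MSMO1* (-0.46) and *PIM1* (-0.45). Values closer to 0 were those of *TUBB1* (-0.40), *TRAF3* (-0.38), *PDK1* (-0.37), *BCL2L11* (-0.34), *CENPE* (-0.33), *HBG2* (-0.32), *HSP90AB1* (-0.32), *OGT* (-0.29), *TET2* (-0.27), *ESPL1* (-0.27), *SLC7A1* (-0.27), *FOXK1* (-0.27), *POLR1A* (-0.26), *IGF2BP1* (-0.26), *POLD2* (-0.25), *IGF2BP2* (-0.24), *EPRS1* (-0.22), *MT-ND4* (-0.22) and *YBX1* (-0.13).

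Positive values below 0.4 were those of *UROD* (0.13), *MCM7* (0.15), *TNNT1* (0.15), *GATA2* (0.16), *MT-CO3* (0.17), *EEF1A1* (0.18), *DKC1* (0.19), *RPL13A* (0.21), *DNAJA1* (0.25), *RRM2* (0.25), *DES* (0.26), *MBD6* (0.28), *FLNA* (0.31), *CEBPB* (0.31), *TK1* (0.32), *TNIP1* (0.33), *BLCAP* (0.36), *CDK4* (0.37) and *HSPA8* (0.38). Larger ones were those of *B2M* (0.41), *ATF7IP2* (0.41), *GDF15* (0.45), *UTP14A* (0.51), *NSDHL* (0.52), *EGLN3* (0.54), *RPLP2* (0.56) and *PECAM1* (0.56). The most positive were those of *FOS* (1.09), *ENG* (1.11), *TCN1* (1.14), *MORC1* (1.22), *ACVRL1* (1.26), *LGALS3BP* (1.32), *NUPR1* (1.45), *MX1* (1.73), *ANKRD33* (1.74), *PAGE4* (1.75), *DYDC2* (1.91), *XAGE1B* (2.10), *CTAG2* (2.46) and *MYH2* (4.59). With 1 library left out, the change in KO cells lay between 0.92 and 1.88 for *XAGE1B* and between 1.67 and 5.38 for *CTAG2*. Each lost its call in KO cells in 4 such fits (edgeR, highest adjusted p = 0.175 and 0.108). *MYH2*, *CTAG2* and *MX1* were near the limit of detection in at least 1 group. For *MYH2* these were both WT groups, so the size of its difference is uncertain. *FLNA*, *DKC1*, *UTP14A*, *NSDHL* and *CTAG2* lie in distal Xq, where 109 of 206 genes had a more positive change in KO cells and 2 a more negative one. With 3 libraries a group, no test for outlying samples was made.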

How the results depend on the processing

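The count of 6243 called genes lay between 5206 and 7924 under other normalisations, tests, filters and sets of libraries, and was 7682 at an unadjusted p under 0.05. It was 1031 with a 2-fold minimum, and 5246 to 5777 with 1 KO library left out. The change of *MBD6* lay between -0.85 and -0.66, and between -0.88 and -0.79 with 1 library left out, and passed the threshold in each case. The interaction was called for 3654 to 3988 genes, and for 3226 to 4077 with 1 KO library left out, but for 13321 with spike-in scaling. Of the 6243 calls, 70.2% kept their direction and call with spike-in scaling and 81.2% to 98.2% under the other fits. Same-numbered libraries of the KO groups did not deviate together (correlations -0.11, 0.04 and -0.08), and unlike-numbered ones ran from -0.13 to 0.22. With 3 libraries a group this cannot decide whether the numbers pair libraries. The replicate block gave 6067 called genes over 12 libraries, 5206 over the 6 KO libraries and 3654 for the interaction.

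Of 2386 recomputed values for named genes, 2248 kept their direction and side of the threshold, 94 lost the call, 14 gained one and 30 changed sign. With spike-in scaling the changed values were *ASXL2* 0.148, *BAP1* 0.151, *CEBPB* 0.173, *CRELD2* 0.0154, *EZH2* 0.0443, *FOXK2* 0.141, *HSF1* 0.00236, *IGF2BP1* 0.0168, *KDM1B* 0.0102, *MGA* 0.0287, *MT-CO3* 0.0134, *MYB* 0.132, *PIM1* 0.163, *TET2* 0.112, *TRIM25* 0.146 and *YBX1* 0.0260. By construction this scaling adds a constant of about 0.18. *CEBPB* was 4.6e-05 with DESeq2 size factors, and *RBBP4* was -3.7e-04 with the replicate block over 6 libraries. With 1 library left out, *ASXL2* lay between -0.0731 and 0.00559, *BAP1* between -0.0684 and 0.00361, *BCOR* between -0.00518 and 0.0961, *CEBPB* between -0.0385 and 0.0177, and the others that changed sign were *FOXK2* between -0.104 and 0.00585, *HCFC1* between -0.0236 and 0.0659, *PRAME* between -0.0980 and 0.170 and *RBBP4* between -0.0219 and 0.0394. None of these 8 genes passed the threshold as reported.

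Fewer list members rose in some fits. With the replicate block over 6 libraries 12 DNA replication genes, 9 ribosome biogenesis genes, 9 ATF4 genes and 12 unfolded protein response genes rose. Without the second shControl library 13 oxidative phosphorylation genes rose, and the lowest count for cholesterol synthesis was 6. For *GADD45G* the call was lost without the first shControl library (1.57, adjusted p = 0.170). The cause of these differences was not tested.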

Other observations

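Some further changes fell outside the descriptions above. *AIF1*, which encodes a calcium-binding protein of macrophages and is one of the monocyte markers, rose by 2.17 ± 0.19 on the log2 scale, while *CD3E*, a T cell receptor subunit, fell by 1.18 ± 0.36 at a level near 1 CPM or lower. Of the 10 monocyte markers tested 3 rose, none fell and 7 did not pass the threshold (median 0.12). The simple-epithelial keratins *KRT8* and *KRT18* rose by 0.47 ± 0.03 and 0.39 ± 0.03. They were the only 2 of the 9 epithelial markers tested that rose, while 2 others fell and 5 did not pass (median 0.09). *ID3*, an inhibitor of differentiation that BMP signalling induces, rose by 0.86 ± 0.14. *CD44*, the hyaluronan receptor, rose by 1.22 ± 0.16, *LAMC1*, a laminin chain, by 1.71 ± 0.33, and *COL4A2*, a chain of type IV collagen, fell by 1.05 ± 0.14. The receptor *KIT* rose by 0.51 ± 0.10 and the cyclin *CCND1* by 0.58 ± 0.09. All genes named in this paragraph passed an adjusted p of 0.05 in edgeR's quasi-likelihood fit and were chosen after their values were seen.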
